A study of Arabidopsis thaliana with 24 samples.

Results

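The genes of brassinosteroid synthesis, inactivation and signalling were followed in whole Arabidopsis thaliana seedlings of 14 days, grown on soil in 4 settings and sampled in the morning (zeitgeber time 4, ZT4, counted in hours from lights on or sunrise) and in the evening (ZT16). The set holds 9 loci, taken by locus identifier from the 27655 loci of the count files: DWF4, CPD, ROT3, BR6OX1 and BR6OX2 for synthesis, BAS1 for inactivation, BRI1 for perception, and BZR1 and BES1 for transcription. Lab LD was the ordinary long day of a growth room. In LD+FR+TEMP, also a growth room, far-red light was added from a 730 nm diode until the red to far-red ratio was 1, and the temperature moved between 15.8 and 22.8 °C and stood at 17.9 °C at ZT4, 19.8 °C at ZT15 and 18.3 °C at ZT17. Natural 2013 and natural 2014 were plants kept outdoors in June 2013 and July 2014, in a cage under garden fabric that dimmed sunlight. Each of the 8 combinations of setting and time had 3 libraries, 24 in all, and genotype is not given in the sources used here. Each outdoor setting was 1 calendar period, so year, weather and sunlight cannot be told apart. In LD+FR+TEMP the added far-red light and the temperature cycle came together, so their parts cannot be told apart either.

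Brassinosteroids are plant steroid hormones that drive cell elongation and shape the response of seedlings to light, shade and warmth. They are made from campesterol by a chain of cytochrome P450 enzymes, bind the receptor kinase BRI1 at the cell surface, and act through the transcription factors BZR1 and BES1 once the kinase BIN2 that holds these back is switched off. BZR1 and BES1 are known to repress synthesis genes such as DWF4 and CPD, a negative feedback, and the inactivating enzyme BAS1 is known to be raised by the hormone.

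The libraries read polyadenylated transcripts from their 3′ ends. Totals ran from 12069812 to 16089156 reads in the 12 indoor libraries and from 6543615 to 10711582 in the 12 outdoor ones, so every outdoor library was shallower. Levels are given as CPM, read counts scaled to library size and corrected by TMM, and differences as log2 fold changes with their standard error (SE) from edgeR's quasi-likelihood fit of all 24 libraries, called at an adjusted p under 0.05 over the 18797 loci tested. Of the 9 members, 8 passed the filter on low counts and BR6OX1 did not. The natural 2014 ZT4 libraries stood farthest from the others on the first principal component, at -76.7 to -88.6 against -41 or above elsewhere. All 8 markers of green shoot tissue were detected in every library. Their summed level was 34972 to 48094 CPM at ZT4 and 13602 to 21616 CPM at ZT16, so the times did not overlap. All 12 root markers were tested, 9 were above 0 in every library, and their summed level lay between 254 and 468 CPM. In RNA of whole seedlings, fewer cells of a type and less RNA per cell cannot be told apart. The labels number the replicates without saying that they came from separate plantings, so p-values measure the spread between these libraries.

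The 250 bases before the annotated gene start are shown for CPD, BAS1 and BES1, whose morning to evening difference changed most clearly with the setting, and for BZR1. They are RefSeq sequence of assembly TAIR10.1, read 5′ to 3′ on the strand of the gene, at chr5:1706949-1707198 (minus strand), chr2:11380213-11380462 (plus strand), chr1:6688213-6688462 (plus strand) and chr1:28185254-28185503 (plus strand) in that order. Capitals mark the motifs searched on both strands: CGTGTG and CGTGCG, the forms of the brassinosteroid response element known to bind BZR1, then CACGTG, which is the G-box, then the letters CACATG, an element known from hormone-responsive genes with a dawn peak, and last AAATATCT, the evening element of clock-controlled genes.
CPD: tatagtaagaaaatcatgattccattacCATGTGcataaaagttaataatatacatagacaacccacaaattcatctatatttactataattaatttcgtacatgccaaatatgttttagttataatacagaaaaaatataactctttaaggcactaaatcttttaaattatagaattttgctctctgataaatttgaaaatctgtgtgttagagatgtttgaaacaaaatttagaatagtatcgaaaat
BAS1: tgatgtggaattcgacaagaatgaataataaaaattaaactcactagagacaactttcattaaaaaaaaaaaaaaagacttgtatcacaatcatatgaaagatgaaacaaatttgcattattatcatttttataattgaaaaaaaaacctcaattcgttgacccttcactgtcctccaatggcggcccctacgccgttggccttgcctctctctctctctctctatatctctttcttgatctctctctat
BES1: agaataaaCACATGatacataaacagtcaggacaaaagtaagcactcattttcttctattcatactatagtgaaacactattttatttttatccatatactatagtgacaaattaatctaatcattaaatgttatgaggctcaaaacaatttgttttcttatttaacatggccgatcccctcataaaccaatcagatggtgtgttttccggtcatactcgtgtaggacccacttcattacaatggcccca
BZR1: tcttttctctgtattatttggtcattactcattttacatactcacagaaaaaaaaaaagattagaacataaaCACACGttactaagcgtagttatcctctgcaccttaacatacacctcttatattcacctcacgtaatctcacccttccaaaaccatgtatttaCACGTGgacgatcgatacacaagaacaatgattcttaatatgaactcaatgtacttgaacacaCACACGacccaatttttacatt
A brassinosteroid response element was present in 1 of the 9 windows, that of BZR1, with CGTGTG on the opposite strand starting 178 and 22 bases before the gene start. The BZR1 window also held the G-box, 85 bases before the start. Among 27443 such windows of the genome, 6.71% held either response element and 6.49% the G-box. CACATG was present in the windows of CPD, at 222 bases, BES1, at 242 bases, and BR6OX1, at 171 bases, and in 11.1% of all windows. The evening element was in none of the 9, and in 4.79% of all windows. The G-box and CACATG are both forms of the E-box, CANNTG, which 55.3% of windows held. A match is a string of letters, and no match says only that these letters are not in this window.

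Among the synthesis enzymes, CPD showed the clearest pattern (AT5G05690, chromosome 5, 1702640 to 1706948, minus strand). It encodes a cytochrome P450 that oxidises the steroid ring system and is required for brassinosteroid production. At ZT4 it stood at 86.8, 105 and 115 CPM in lab LD, 65.5, 77.3 and 68.8 in LD+FR+TEMP, 75.0, 61.7 and 68.2 in natural 2013, and 64.9, 73.0 and 62.1 in natural 2014. Every lab LD library was thus above every library of the other settings in the morning, and those other settings overlapped. At ZT16 the values were 62.2, 60.8 and 64.5 CPM in lab LD, 68.5, 70.2 and 61.2 in LD+FR+TEMP, 98.5, 96.5 and 98.3 in natural 2013, and 95.0, 120 and 100 in natural 2014. In the evening the order had turned, with all 6 outdoor libraries above all 6 indoor ones.

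The fall of CPD from morning to evening in lab LD was 0.613-fold, a log2 change of -0.71 ± 0.11 (SE, adjusted p = 1.53e-05). In LD+FR+TEMP the change was -0.08 ± 0.11 (adjusted p = 0.648). Outdoors CPD rose instead, by 0.51 ± 0.11 in natural 2013 (adjusted p = 0.000632) and 0.65 ± 0.11 in natural 2014 (adjusted p = 2.32e-05). The change over the day itself was tested between settings. Relative to lab LD it was higher by 0.62 ± 0.15 in LD+FR+TEMP (adjusted p = 0.0171), 1.22 ± 0.15 in natural 2013 (adjusted p = 2.88e-06) and 1.36 ± 0.15 in natural 2014 (adjusted p = 1.37e-07). The first of these did not pass without replicate 1 of LD+FR+TEMP at ZT4 (0.57, adjusted p = 0.0572). Both years were alike in direction, and their difference was 0.14 ± 0.16 (adjusted p = 0.614).

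**Figure D1:**
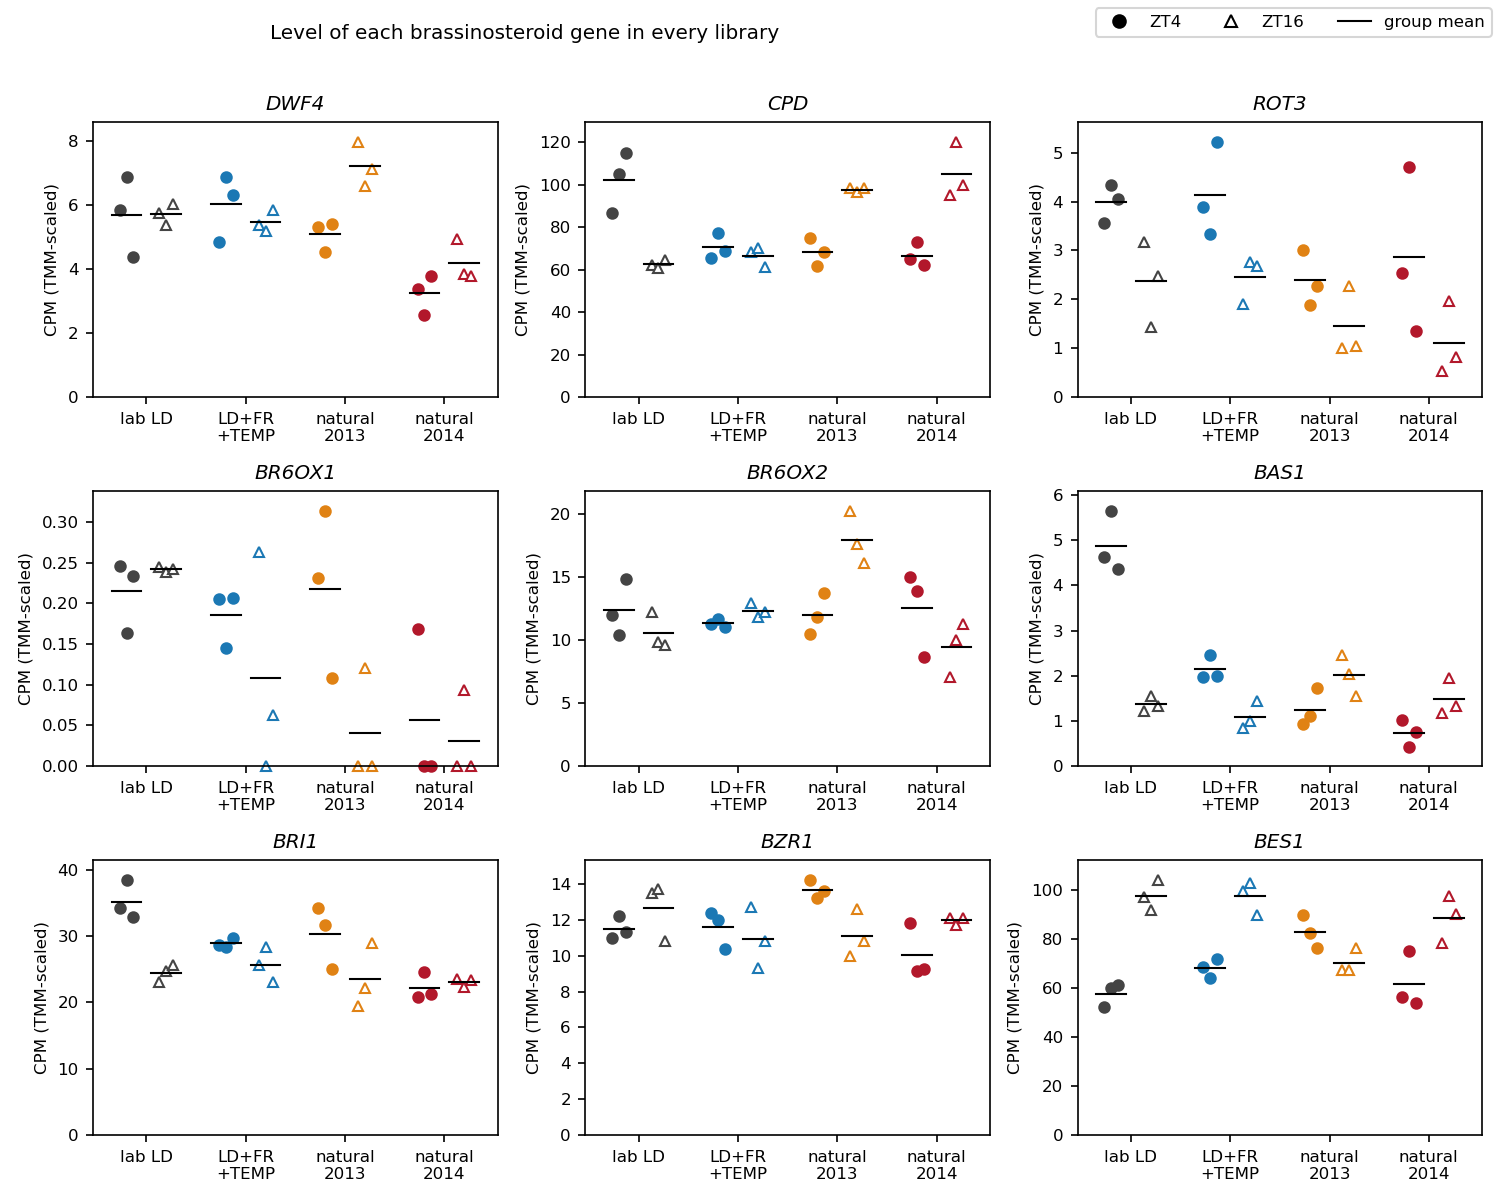
Level of each of the 9 genes in CPM (y axis, linear, from 0), by growth setting (x axis), with filled circles for ZT4, open triangles for ZT16 and a bar for the mean of 3 libraries. The CPD circles of lab LD (86.8 to 115 CPM) lie above its triangles (60.8 to 64.5), and outdoors the triangles (95.0 to 120) lie above the circles (61.7 to 75.0).

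DWF4, the side chain hydroxylase held to be the rate-limiting step of the pathway (AT3G50660, chromosome 3, 18813949 to 18817405, minus strand), followed another course. At ZT4 its values were 5.85, 6.87 and 4.37 CPM in lab LD, 4.85, 6.88 and 6.31 in LD+FR+TEMP, 5.32, 4.54 and 5.40 in natural 2013, and 3.38, 2.57 and 3.79 in natural 2014. At ZT16 they were 5.75, 5.38 and 6.04 CPM in lab LD, 5.38, 5.18 and 5.83 in LD+FR+TEMP, 7.95, 6.60 and 7.13 in natural 2013, and 4.94, 3.83 and 3.77 in natural 2014. Natural 2014 was the lowest setting at both times, without overlap with any other setting at that time, and natural 2013 at ZT16 was the highest group. These levels rest on 18 to 100 reads per library.

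In natural 2014 DWF4 was lower than in lab LD at ZT4, by -0.81 ± 0.20 on the log2 scale (adjusted p = 0.00194). It was lower than in natural 2013 at both times, by -0.66 ± 0.22 in the morning (adjusted p = 0.0208) and -0.78 ± 0.18 in the evening (adjusted p = 0.0129). The ZT4 difference between years did not pass without natural 2013 replicate 1 or 3 or natural 2014 replicate 2 (adjusted p from 0.059 to 0.115) or in DESeq2 (adjusted p = 0.0501), and the ZT16 one not without natural 2013 replicate 1 or natural 2014 replicate 2 (0.0646 and 0.0729). Lab LD and LD+FR+TEMP showed no called difference between times, at 0.01 ± 0.16 and -0.14 ± 0.16. Natural 2013 rose by 0.49 ± 0.19 from ZT4 to ZT16 (adjusted p = 0.0418), and the ZT16 level of natural 2014 was -0.45 ± 0.18 below lab LD (adjusted p = 0.0478). Both calls lie at the threshold: the first was lost in 6 of 24 fits that left out 1 library (any ZT4 library of natural 2013, its ZT16 replicates 1 and 3, and lab LD ZT16 replicate 1), with an adjusted p of at most 0.136. The second was lost in 15 of 24 (every natural 2013 library, every lab LD ZT16 library, natural 2014 ZT16 replicates 2 and 3, LD+FR+TEMP ZT4 replicate 3 and ZT16 replicates 1 and 3, and lab LD ZT4 replicate 1), with an adjusted p of at most 0.158.

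BR6OX2 catalyses the last oxidation steps that give the active hormones castasterone and brassinolide (AT3G30180, chromosome 3, 11810726 to 11813883, plus strand). Its ZT16 values were 12.2, 9.87 and 9.61 CPM in lab LD, 12.9, 11.8 and 12.2 in LD+FR+TEMP, 20.2, 17.6 and 16.1 in natural 2013, and 7.10, 9.99 and 11.3 in natural 2014. The natural 2013 evening libraries were above all 21 others, ZT4 included, where values ran from 8.64 to 15 CPM and the settings overlapped. Natural 2013 was higher than lab LD at ZT16 by 0.77 ± 0.17 (adjusted p = 0.00121), and natural 2014 was lower than natural 2013 by -0.93 ± 0.18 (adjusted p = 0.00229). From ZT4 to ZT16 BR6OX2 rose in natural 2013 by 0.58 ± 0.18 (adjusted p = 0.0123), against -0.40 ± 0.19 in natural 2014 (adjusted p = 0.0812). The first was lost without replicate 1 of natural 2013 at ZT4 (adjusted p = 0.0701) or at ZT16 (0.0625), and the second passed without replicate 3 of natural 2014 at ZT4 (-0.61, adjusted p = 0.0092) or at ZT16 (-0.55, adjusted p = 0.0345). The change over the day differed between the years by -0.98 ± 0.26 (adjusted p = 0.00854), in every alternative fit. The rise from morning to evening was called in both natural years for CPD and in 2013 for BR6OX2, and a difference between the genes was not tested.

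ROT3, a cytochrome P450 that hydroxylates the side chain of brassinosteroid intermediates (AT4G36380, chromosome 4, 17187528 to 17192507, minus strand), was counted with 6 to 76 reads per library and had wider errors than the other tested synthesis genes. It stood at 3.57, 4.33 and 4.06 CPM in lab LD at ZT4 and at 3.18, 1.44 and 2.48 at ZT16. In natural 2014 it stood at 2.53, 4.71 and 1.36 CPM at ZT4 and 0.539, 1.96 and 0.815 at ZT16, so that its natural 2014 morning and evening libraries overlapped. ROT3 fell from ZT4 to ZT16 in natural 2014 by -1.38 ± 0.45 (adjusted p = 0.0139). That call did not pass without natural 2014 ZT4 replicate 2 (-0.79, adjusted p = 0.226) or ZT16 replicate 1 or 3 (-1.04 and -1.22, adjusted p = 0.079 and 0.0525). Estimates in the other settings pointed the same way without passing, at -0.75 ± 0.33 in lab LD and LD+FR+TEMP and -0.71 ± 0.45 in natural 2013. The LD+FR+TEMP estimate passed in a fit of its own morning and evening groups alone (-0.75, adjusted p = 0.027). At ZT16 natural 2014 was below lab LD by -1.09 ± 0.41 (adjusted p = 0.0419), which was lost without replicate 1 or 3 of either group (0.0842 to 0.208).

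BR6OX1, the other oxidase of the last steps, with a role shared with BR6OX2 (AT5G38970, chromosome 5, 15594674 to 15598089, minus strand), was nearly undetected. It had 42 reads over the 24 libraries, at most 4 in any, and 0 in 7 libraries. The 3 libraries of a group together held 12 reads in lab LD at ZT16, 9 in lab LD at ZT4, 8 and 5 in LD+FR+TEMP at ZT4 and ZT16, 5 in natural 2013 at ZT4, and 1 in each of the other outdoor groups. No difference can be read at that depth, and outdoor libraries were also the shallower ones.

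The sharpest morning differences were those of BAS1, a cytochrome P450 that hydroxylates active brassinosteroids and so inactivates them (AT2G26710, chromosome 2, 11380463 to 11383821, plus strand). At ZT4 it stood at 4.62, 5.64 and 4.37 CPM in lab LD, 1.98, 2.46 and 1.99 in LD+FR+TEMP, 0.925, 1.10 and 1.73 in natural 2013, and 1.01, 0.429 and 0.757 in natural 2014. Lab LD was above LD+FR+TEMP, and LD+FR+TEMP above every outdoor library, while the outdoor years overlapped. At ZT16 the values were 1.22, 1.55 and 1.33 CPM in lab LD, 0.853, 0.986 and 1.44 in LD+FR+TEMP, 2.46, 2.04 and 1.56 in natural 2013, and 1.17, 1.96 and 1.32 in natural 2014. The morning order of settings was gone, with differences from lab LD of -0.32 ± 0.28, 0.55 ± 0.29 and 0.12 ± 0.28 (adjusted p = 0.587, 0.157 and 0.786). At ZT16 the mean of both natural years against LD+FR+TEMP was 0.65 ± 0.25 (adjusted p = 0.0521). That estimate passed in 6 of 24 fits without 1 library.

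Relative to lab LD at ZT4, BAS1 was lower by -1.18 ± 0.23 in LD+FR+TEMP (0.441-fold, adjusted p = 0.000784), -1.93 ± 0.27 in natural 2013 (0.262-fold, adjusted p = 9.49e-06) and -2.74 ± 0.32 in natural 2014 (0.15-fold, adjusted p = 1.39e-07). The mean of both natural years was below LD+FR+TEMP by -1.15 ± 0.26 (adjusted p = 0.00163), and natural 2014 and natural 2013 differed by -0.81 ± 0.40 (adjusted p = 0.151). These comparisons share the lab LD libraries, and the natural 2014 ZT4 group rests on 14 reads in all. From morning to evening BAS1 fell in lab LD by -1.82 ± 0.24 (adjusted p = 1.73e-06), and its fall in LD+FR+TEMP was -0.96 ± 0.27 (adjusted p = 0.00965). In natural 2014 it rose by 1.03 ± 0.38 (adjusted p = 0.0285), and in natural 2013 the estimate was 0.66 ± 0.32 (adjusted p = 0.12). The change over the day differed from that of lab LD by 2.48 ± 0.40 in natural 2013 (adjusted p = 7.5e-05) and 2.86 ± 0.44 in natural 2014 (adjusted p = 1.47e-05), in every alternative, and by 0.86 ± 0.36 in LD+FR+TEMP (adjusted p = 0.209). The LD+FR+TEMP fall was lost without its ZT4 replicate 2 (adjusted p = 0.0516) or ZT16 replicate 1 (0.0571) and in thinned libraries (0.297), and the natural 2014 rise without its ZT4 replicate 2 or 3 or its ZT16 replicate 2 (0.0596 to 0.181), in thinned libraries (0.12), in DESeq2 (0.0799) and in a fit of the compared groups alone (0.0683). The natural 2013 estimate passed without its ZT4 replicate 3 (1.00, adjusted p = 0.0462).

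CPD and BAS1 thus shared a course: highest in lab LD among the morning groups, lower there in the evening, and with the opposite sign of the morning to evening estimate outdoors.

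**Figure D2:**
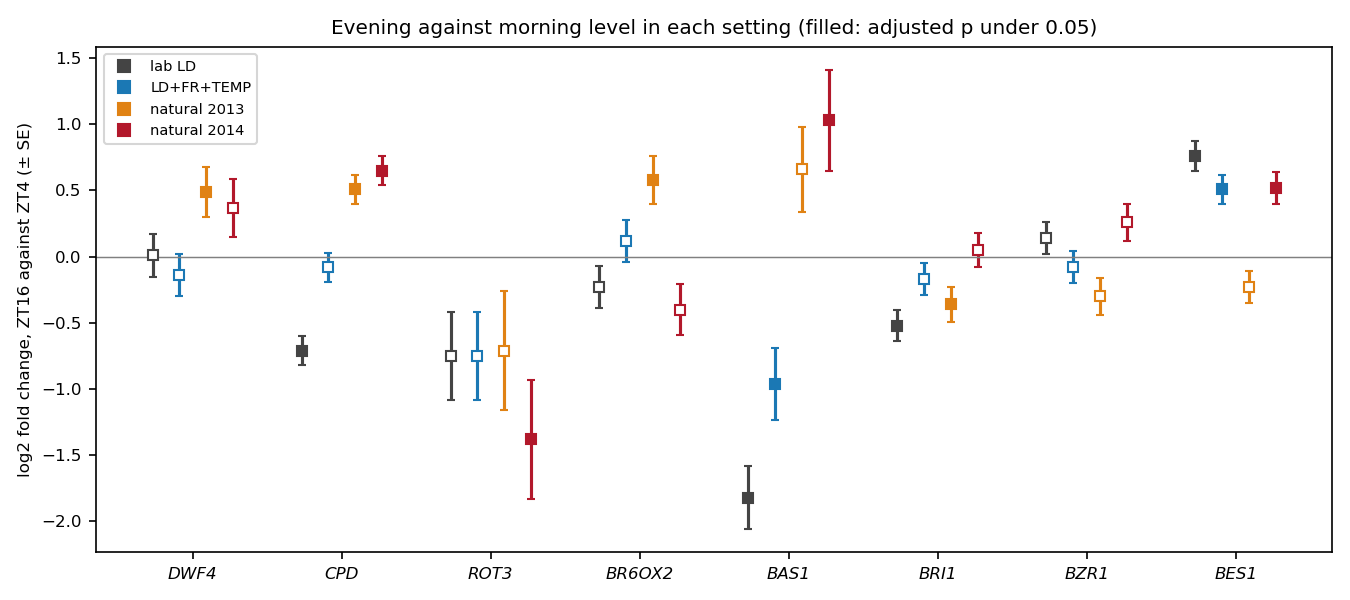
Log2 fold change of ZT16 against ZT4 (y axis, ± SE from edgeR) for the 8 tested genes (x axis) in each setting, filled where the adjusted p was under 0.05. CPD runs from -0.71 in lab LD to 0.65 in natural 2014 and BAS1 from -1.82 to 1.03, whereas BES1 is above 0 in all settings but natural 2013 (-0.23).

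The receptor kinase BRI1 (AT4G39400, chromosome 4, 18324457 to 18328831, plus strand) varied less. Its ZT4 values were 34.2, 38.4 and 32.9 CPM in lab LD, 28.7, 28.3 and 29.7 in LD+FR+TEMP, 34.3, 31.7 and 25 in natural 2013, and 20.8, 24.6 and 21.2 in natural 2014. At ZT16 all 12 libraries lay between 19.5 and 28.9 CPM with the settings overlapping. Natural 2014 was the only setting below lab LD at ZT4 past the threshold, by -0.66 ± 0.13 (adjusted p = 0.000164), and it was below natural 2013 by -0.45 ± 0.13 (adjusted p = 0.0118), a call lost without natural 2013 ZT4 replicate 1 (-0.34, adjusted p = 0.0864). BRI1 fell from ZT4 to ZT16 in lab LD by -0.52 ± 0.12 (adjusted p = 0.00191), against 0.05 ± 0.13 in natural 2014, and these changes differed by 0.58 ± 0.18 (adjusted p = 0.0155). In natural 2013 it fell by -0.36 ± 0.13 (adjusted p = 0.0315), which was lost without replicate 1 or 2 at either time (adjusted p from 0.0897 to 0.191).

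Of the transcription factors, BES1 (AT1G19350, chromosome 1, 6688463 to 6691216, plus strand) changed with time of day. At ZT4 it stood at 52.2, 59.9 and 61.1 CPM in lab LD, 68.5, 64.0 and 72.0 in LD+FR+TEMP, 89.8, 82.4 and 76.2 in natural 2013, and 56.3, 75.0 and 53.9 in natural 2014. At ZT16 it stood at 97.3, 91.9 and 104 CPM in lab LD, 99.6, 103 and 89.8 in LD+FR+TEMP, 67.5, 67.3 and 76.5 in natural 2013, and 78.5, 97.8 and 90.1 in natural 2014. Natural 2013 was the exception at both times: the highest setting in the morning and, without overlap, the lowest in the evening. Against lab LD, natural 2013 was higher by 0.52 ± 0.11 at ZT4 (adjusted p = 0.00126) and lower by -0.47 ± 0.11 at ZT16 (adjusted p = 0.0028). BES1 rose over the day by 0.76 ± 0.11 in lab LD (adjusted p = 1.02e-05), 0.52 ± 0.12 in natural 2014 (adjusted p = 0.000584) and 0.51 ± 0.11 in LD+FR+TEMP (adjusted p = 0.00119). In natural 2013 the estimate was -0.23 ± 0.12 (adjusted p = 0.123, and 0.0335 in a fit of those 2 groups alone). The change over the day in natural 2013 was below that of lab LD by -0.99 ± 0.16 (adjusted p = 7.74e-05), and natural 2014 was above natural 2013 by 0.76 ± 0.16 (adjusted p = 0.00169). Beside that, the summed root markers of natural 2013 went from 291 to 420 CPM at ZT4 to 254 to 278 CPM at ZT16, with 6 of 12 called lower. In the difference of the day's change between the natural years, 7 of 8 green shoot markers were called higher. Their median was 0.74, beside 0.76 for BES1, and 2 of 12 root markers were higher, with a median of 1.22. For the day's change of natural 2013 against lab LD, 1 of 8 green shoot and 2 of 12 root markers were called, all lower. The medians there were 0.08 for green shoot and -0.72 for root markers, beside -0.99 for BES1. The part of these markers in the BES1 results was not tested.

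BZR1, the close homologue of BES1 (AT1G75080, chromosome 1, 28185504 to 28188075, plus strand), was the steadiest member. Its 24 values lay between 9.14 and 14.2 CPM. At ZT4 natural 2013 stood at 14.2, 13.2 and 13.6 CPM and natural 2014 at 11.8, 9.14 and 9.24, without overlap. This was its only call in the 18 contrasts, at -0.45 ± 0.14 (adjusted p = 0.0188), and it did not pass without natural 2013 ZT4 replicate 1 (0.0611) or natural 2014 ZT4 replicate 2 (0.0797) or 3 (0.0726), nor in thinned libraries (0.0518). The change over the day differed between the years by 0.55 ± 0.20 (adjusted p = 0.057), the same sign as for BES1, and this estimate passed in 5 of 24 fits without 1 library.

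BZR1 has 2 annotated transcript models that end apart, which a 3′ tag can separate in part. The first has 2 exons, the last at chr1:28186320-28187410, and the second has 3, the last at chr1:28187715-28188075 (TAIR10.1). The share of BZR1 reads on the second model was 14.6% to 29.6% in the 12 indoor libraries, with a median of 22.3%, and 4.82% to 18.7% in the 12 outdoor ones, with a median of 13.4%. Of the outdoor libraries, 7 were below every indoor library. Outdoors the lowest group was natural 2013 at ZT16, at 10.1%, 8.57% and 4.82%. The pattern was chosen after its values were seen, so it is a description with no test. It rests on 4 to 57 reads of the second model per library, reads in sequence common to both models may have been assigned to either, and indoor libraries were deeper.

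**Figure D3:**
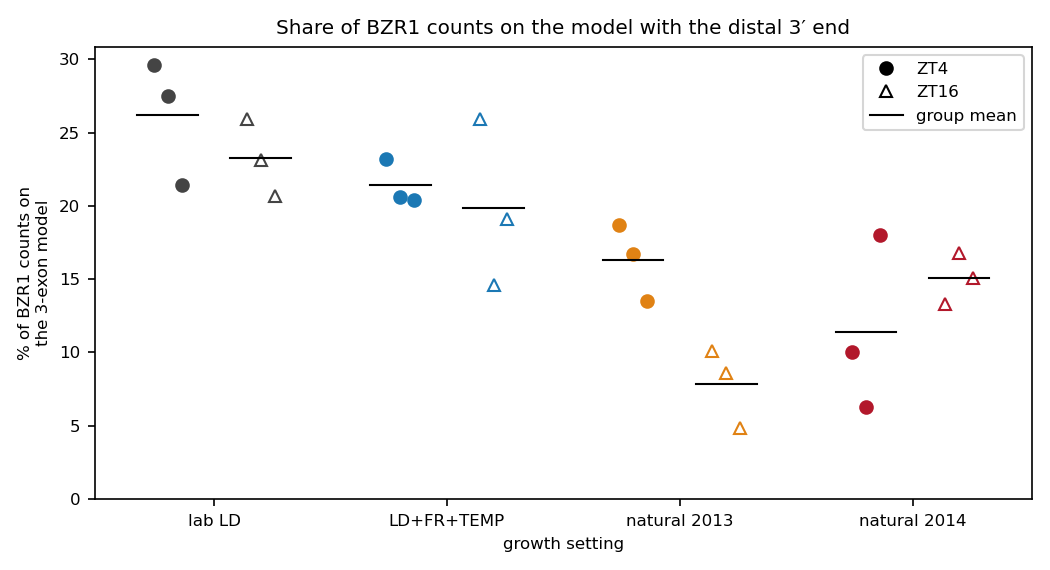
Percent of BZR1 reads assigned to the 3-exon model (y axis) in each library by growth setting (x axis), with filled circles for ZT4, open triangles for ZT16 and bars for the mean of 3 libraries. Lab LD ranges from 20.7% to 29.6% and natural 2013 at ZT16 from 4.82% to 10.1%.

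Against the background of all loci, the counts of members called were as follows. At ZT4 LD+FR+TEMP differed from lab LD in 2 of 8 tested members, CPD and BAS1, both lower, where 16.9% of all loci were called in either direction. Natural 2013 differed in 3 of 8 (CPD and BAS1 lower, BES1 higher; 29.0% of all loci) and natural 2014 in 4 of 8 (DWF4, CPD, BAS1 and BRI1, all lower; 44.3%). At ZT16 LD+FR+TEMP differed from lab LD in 0 of 8 by edgeR, 0 at an unadjusted p under 0.05 and 0 by DESeq2, where 2.65% of all loci were called. Natural 2013 differed at ZT16 in 3 of 8 (CPD and BR6OX2 higher, BES1 lower; 29.1%) and natural 2014 in 3 of 8 (CPD higher, DWF4 and ROT3 lower; 35.8%). With 8 members tested, these counts lie near the shares of all loci. Tissue markers moved with LD+FR+TEMP against lab LD. At ZT4, 4 of 8 green shoot markers were lower (median -0.29) and 3 of 12 root markers higher (0.74). At ZT16, 4 of 8 green shoot (median 0.30) and 6 of 12 root markers (1.45) were higher. Markers moved outdoors against lab LD too. In natural 2013 at ZT4, 1 of 8 green shoot markers was higher and 1 lower (0.04), and 2 of 12 root markers were lower (0.03). At ZT16 2 green shoot markers were higher and 2 lower there (0.09), and 4 of 12 root markers lower (-0.57). In natural 2014 at ZT16, 5 of 8 green shoot markers were higher and 1 lower (0.47), and 2 of 12 root markers lower (-0.26). The part of these markers in the member results was not tested.

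**Figure D4:**
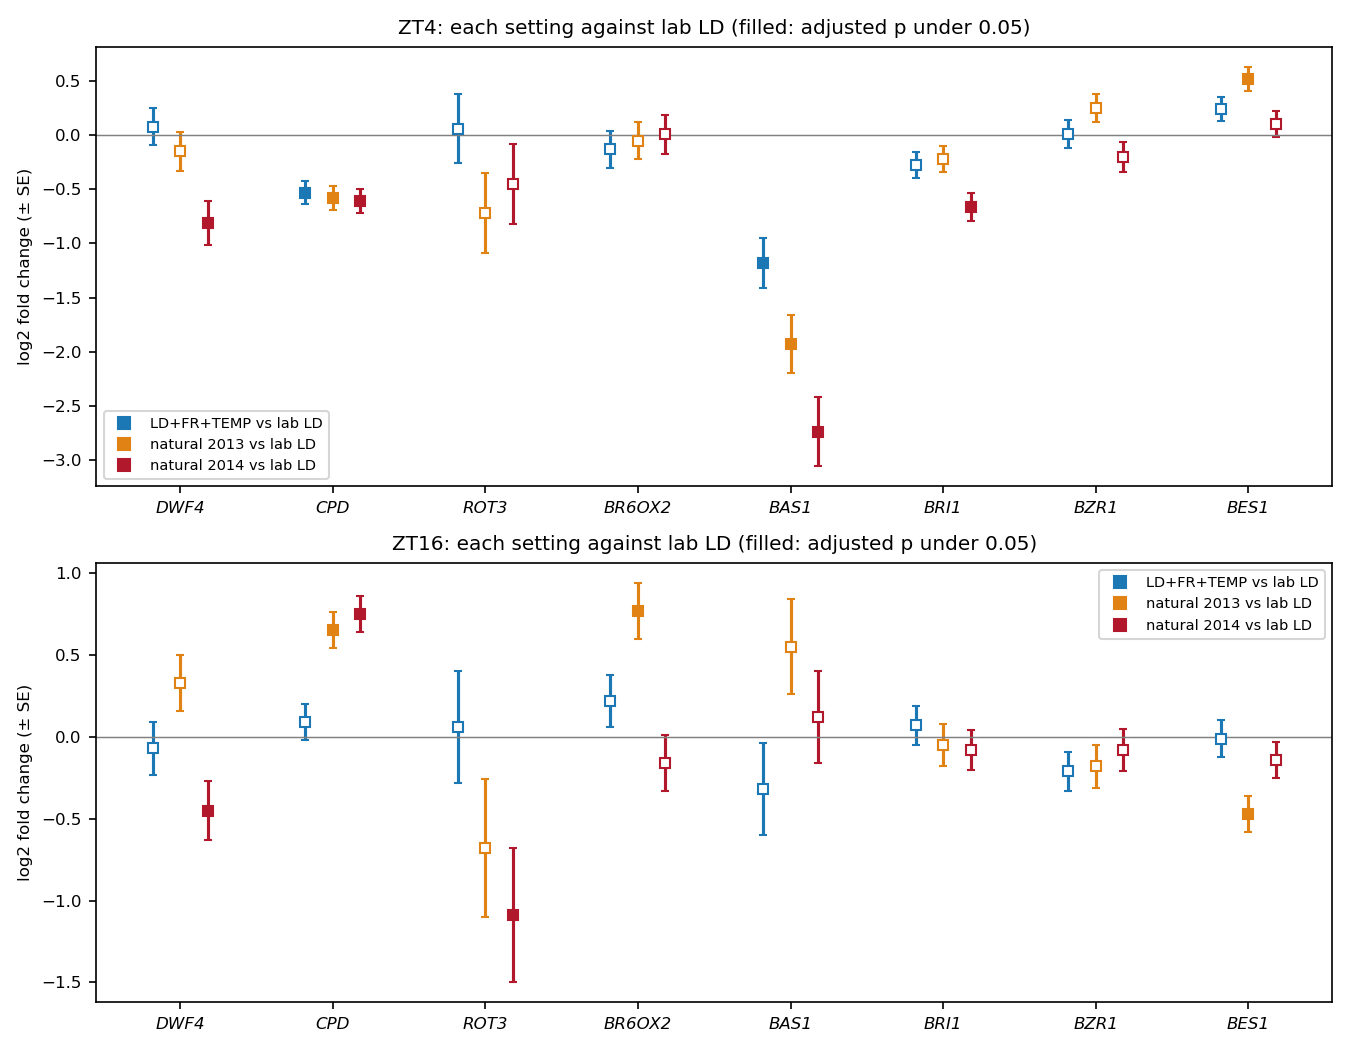
Log2 fold change (y axis, ± SE from edgeR) of LD+FR+TEMP, natural 2013 and natural 2014 against lab LD for the 8 tested genes (x axis), at ZT4 (top) and ZT16 (bottom), filled where the adjusted p was under 0.05. All comparisons at a time share the 3 lab LD libraries, and BAS1 at ZT4 runs from -1.18 to -2.74.

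Natural 2014 differed from natural 2013 in 4 of 8 members at ZT4 (DWF4, BRI1, BZR1 and BES1, all lower; 31.0% of all loci) and 2 of 8 at ZT16 (DWF4 and BR6OX2, both lower; 5.16%). Green shoot markers moved with the comparison of years, 6 of 8 lower and 1 higher at ZT4, with a median of -0.38, and 4 of 8 higher at ZT16, and their part in these counts was not tested. BES1 was lower in 2014 by -0.42 ± 0.12 at ZT4 (adjusted p = 0.00697). The mean of the natural years differed from LD+FR+TEMP in 2 of 8 at ZT4 (DWF4 and BAS1, lower; 29.8%) and 3 of 8 at ZT16 (CPD higher, ROT3 and BES1 lower; 30.8%). DWF4 was lower by -0.56 ± 0.16 in the former (adjusted p = 0.00844), which did not pass without LD+FR+TEMP ZT4 replicate 2 (-0.45, adjusted p = 0.0655). CPD was higher by 0.60 ± 0.10 in the latter (adjusted p = 3.02e-05). Natural ROT3 was lower there by -0.94 ± 0.34 (adjusted p = 0.0371) and BES1 by -0.30 ± 0.10 (adjusted p = 0.0195). The ROT3 call was lost in 6 of 24 fits without 1 library (replicates 1 and 3 of either natural year and 2 and 3 of LD+FR+TEMP, all ZT16), and the BES1 call without natural 2014 ZT16 replicate 1 or LD+FR+TEMP ZT16 replicate 1 or 2 (adjusted p from 0.0515 to 0.0821). Root markers moved with this comparison: 11 of 12 were called lower in the natural mean at ZT16 and 8 of 12 at ZT4, and their part in the member results was not tested.

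Between times of day, 4 of 8 members were called in lab LD (21.9% of all loci), 2 in LD+FR+TEMP (23.5%), 4 in natural 2013 (35.5%) and 4 in natural 2014 (45.7%). The change over the day differed from lab LD in 1 of 8 members for LD+FR+TEMP (CPD; 4.24% of all loci), 4 for natural 2013 (CPD, BR6OX2, BAS1 and BES1; 17.4%) and 3 for natural 2014 (CPD, BAS1 and BRI1; 30.3%). It differed between the natural years in 2 members (BR6OX2 and BES1; 17.1%). Green shoot markers moved with these comparisons. From ZT4 to ZT16, 8 of 8 were called lower in lab LD (median -1.23) and 7 of 8 in LD+FR+TEMP (-0.80). In natural 2013, 8 of 8 were lower (-1.09), and in natural 2014, 5 of 8 (-0.72). For the change over the day against lab LD, 4 of 8 were higher for LD+FR+TEMP and 4 of 8 for natural 2014. The part of these markers in the member results was not tested. The median log2 fold change over all loci stayed between -0.047 and 0.043 in all 18 contrasts.

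The other genes of the pathway were followed as lists, which were chosen with earlier results of these data known. Of 11 other synthesis genes, most of which act on sterols upstream of the members, 4 were lower and 2 higher in natural 2014 than in lab LD at ZT4, where 22.1% of all loci were called lower and 22.1% higher. SMT2, a sterol methyltransferase, was lower there by -0.85 ± 0.14 (adjusted p = 2.94e-05), HYD1, a sterol isomerase, by -0.74 ± 0.13 (adjusted p = 5.92e-05), and DWF7, a sterol desaturase, was higher by 0.35 ± 0.11 (adjusted p = 0.0128). At ZT16 natural 2014 had 4 higher and 2 lower, against 18.5% and 17.4% of all loci, among them DWF1, a sterol reductase, at 0.56 ± 0.13 (adjusted p = 0.00186). The list medians were -0.18 and 0.29, against -0.047 and -0.011 over all loci, and the counts are not set apart from the background. DET2, the steroid reductase of the pathway, was higher in natural 2014 than in natural 2013 at ZT16 by 0.61 ± 0.15 (adjusted p = 0.0195), where DWF4 and BR6OX2 were lower.

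Of 6 other inactivation genes, 2 were below their ZT4 lab LD level in LD+FR+TEMP, the glucosyltransferases UGT73C5 (-1.44 ± 0.29, adjusted p = 0.000921) and UGT73C6 (-0.91 ± 0.20, adjusted p = 0.00205), where 8.60% of all loci were called lower. In natural 2014 at ZT4, 1 was lower and 1 higher, a smaller share than the 44.3% called over all loci. CYP72C1, a relative of BAS1 among the P450 enzymes, was lower by -1.70 ± 0.50 (adjusted p = 0.00744), the direction of BAS1, and UGT73C5 was higher by 1.12 ± 0.26 (adjusted p = 0.00109). UGT73C5 and UGT73C6 are closely related genes, so reads may be split between them.

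Among 7 other receptors and co-receptors, 1 was higher and 1 lower than in lab LD at ZT16 in each natural year, no larger a share than that of all loci (29.1% in 2013 and 35.8% in 2014). BAK1, the co-receptor of BRI1, was higher at ZT16 by 0.50 ± 0.12 in natural 2013 (adjusted p = 0.00333) and by 0.50 ± 0.12 in natural 2014 (adjusted p = 0.0021). BKI1, an inhibitor of BRI1, was lower by -0.40 ± 0.14 (adjusted p = 0.0387) and -0.44 ± 0.14 (adjusted p = 0.0152). Of 10 relay kinases and phosphatases, 8 were tested, with CDG1 and BSU1 under the filter. BIN2, the kinase that phosphorylates and restrains BZR1 and BES1, had means of 38.5 CPM at ZT4 and 30.8 at ZT16 in lab LD, and of 23.7 and 45.6 in natural 2014. BIN2 fell over the day in lab LD by -0.32 ± 0.11 (adjusted p = 0.0415) and rose in natural 2014 by 0.94 ± 0.12 (adjusted p = 3.8e-07), a difference of 1.26 ± 0.17 (adjusted p = 1.21e-06). BSK3, a kinase below BRI1, went the other way between those settings, by -0.82 ± 0.17 (adjusted p = 0.000446).

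Of 11 other transcription factors 9 were tested, and TCP1 and CES, known activators of DWF4 and CPD respectively, were under the filter. PIF4 and PIF5 encode light-regulated factors that work together with BZR1 in elongation. PIF4 had a ZT4 mean of 49.1 CPM in lab LD, 34.7 in LD+FR+TEMP, 26.6 in natural 2013 and 11.3 in natural 2014. It was lower than lab LD by -0.50 ± 0.12 (adjusted p = 0.00442), -0.88 ± 0.12 (adjusted p = 8.63e-06) and -2.13 ± 0.14 (adjusted p = 5.41e-12). At ZT16 PIF4 was higher in each of these settings than in lab LD, by 1.55 ± 0.17, 0.57 ± 0.21 and 0.96 ± 0.19 (adjusted p = 1.29e-05, 0.048 and 0.000322). PIF5 was lower in natural 2014 at ZT4 by -0.62 ± 0.15 (adjusted p = 0.00162), while LD+FR+TEMP and natural 2013 stood at -0.00 ± 0.14 and 0.07 ± 0.15. Between ZT4 and ZT16 PIF4 fell by -4.48 ± 0.16 in lab LD (adjusted p = 1.39e-17) and by -1.39 ± 0.17 in natural 2014 (adjusted p = 2.11e-07). BIM2, a partner of BES1, was higher in natural 2014 at ZT4 by 1.43 ± 0.12 (adjusted p = 3.02e-10).

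Most tested genes of a list known to be induced by brassinosteroid were lower in natural 2014 than in lab LD in the morning. The list was chosen with earlier results of these data known, so it gives no independent support. Of 12 listed, 11 were tested (PRE5 was under the filter), and 9 were lower and 1 higher than in lab LD at ZT4, with a list median of -1.58 against -0.047 over all loci, of which 22.1% were called lower and 22.1% higher. The expansin gene EXPA8 was lower by -3.34 ± 0.29 (adjusted p = 1.15e-09) and the auxin response gene IAA19 by -2.64 ± 0.26 (adjusted p = 6.83e-09), and BEE1, a helix-loop-helix factor, was higher by 1.02 ± 0.28 (adjusted p = 0.00394). In natural 2013, 4 were lower and 3 higher (14.3% and 14.7% of all loci), with a median of -0.38, and the touch-induced xyloglucan enzyme gene TCH4 was higher by 1.48 ± 0.38 (adjusted p = 0.00505) where natural 2014 was lower by -2.55 ± 0.53 (adjusted p = 0.000317), a pair of values chosen after they were seen. LD+FR+TEMP had 3 lower (8.60% of all loci), with EXPA8 at -1.44 ± 0.25 (adjusted p = 0.000227). At ZT16 the list medians against lab LD were 0.02 in LD+FR+TEMP, -0.01 in natural 2013 and -0.16 in natural 2014. Natural 2013 had 1 higher (14.8% of all loci), and natural 2014 had 3 higher and 1 lower (18.5% and 17.4%). Over the day in lab LD 6 fell (11.5% of all loci), led by PRE1, a growth-promoting helix-loop-helix gene, at -3.06 ± 0.24 (adjusted p = 1.76e-10). In LD+FR+TEMP 4 fell (12.1%) and in natural 2013 6 fell (17.8%), with list medians of -0.55 and -0.73. In natural 2014, 4 fell and 5 rose (22.5% and 23.2%), with a median of 0.24. Many of the induced genes also respond to auxin, touch or PIF4, and tissue markers moved with natural 2014 against lab LD at ZT4. In natural 2014 at ZT4 5 of 8 green shoot markers were lower and 2 higher, with a median of -0.41, and 4 of 12 root markers were lower, with a median of -0.53, and their part in it was not tested.

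**Figure D5:**
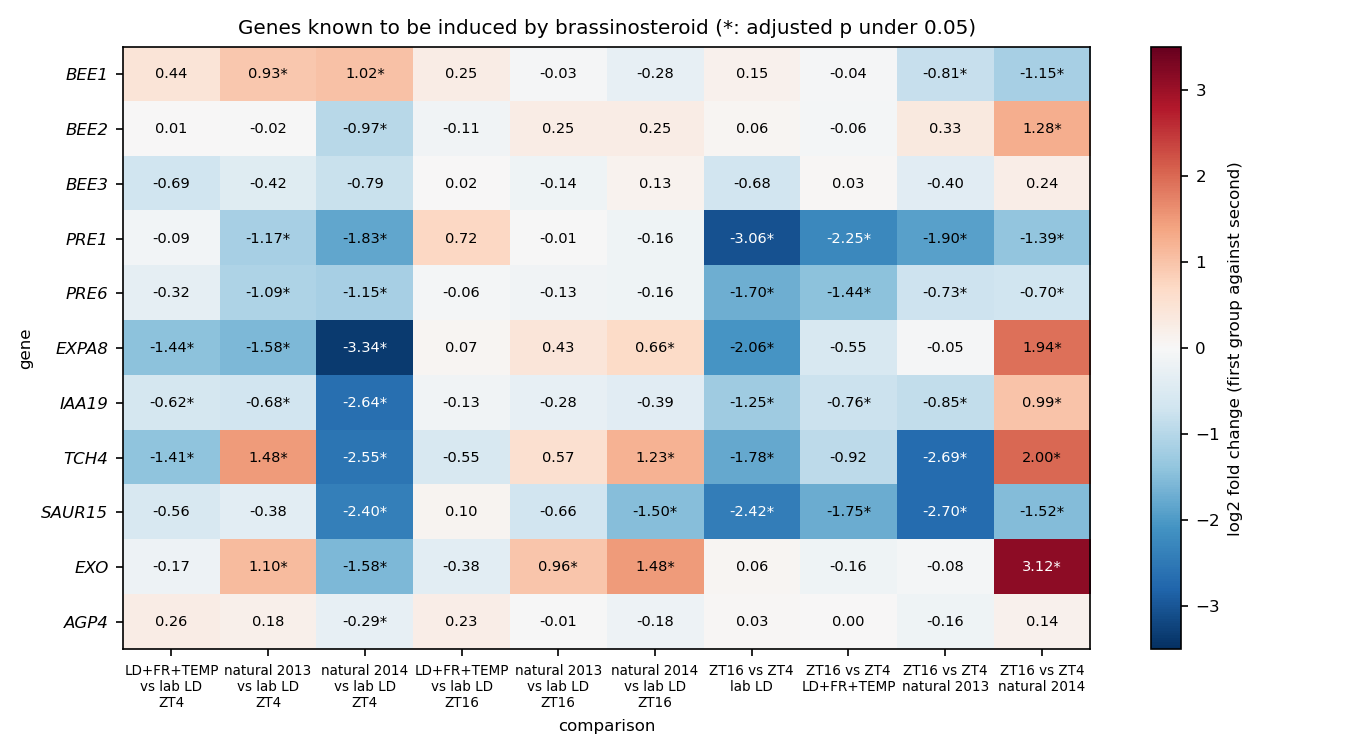
Log2 fold change (colour and printed value) of 11 genes known to be induced by brassinosteroid (y axis) in 10 comparisons (x axis), with an asterisk where the adjusted p was under 0.05. The column of natural 2014 against lab LD at ZT4 holds 9 called lower and 1 called higher, and the column of natural 2014 at ZT16 holds values from -1.50 (SAUR15) to 1.48 (EXO).

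Of 4 genes known to be repressed by the hormone, GLK2, a regulator of chloroplast genes, was lower in natural 2014 than in lab LD at ZT4 by -1.14 ± 0.10 (adjusted p = 7.5e-10), and it fell over the day in every setting. In natural 2014 against lab LD at ZT4, 1 of the 4 was called lower (22.1% of all loci). The list median was -0.79, against -1.58 for the induced genes and -0.047 over all loci. Natural 2013 had 1 of the 4 higher than lab LD at ZT4 (14.7% of all loci), with a median of 0.29.

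Across the 24 libraries and 12699 loci with a mean of at least 5 CPM, the loci most like each member in log2 CPM are given as a description, since the libraries share groups and time points. CPD was closest to AT1G72820 (r = 0.896), AT4G27450 (0.893) and AT4G28240 (0.893). BAS1 was closest to AT1G19000 (0.916), ATCTH (0.905) and AT5G18630 (0.898), and BES1 to CLT3 (0.913), AT1G28660 (0.847) and AT3G02770 (0.814). For ROT3 the first was CYP96A1 (0.837), for BRI1 AT1G13650 (0.832) and for DWF4 GLN1.3 (0.808). BR6OX2 and BZR1 had no close match, with AT5G23520 (0.655) and AT5G36290 (0.681) first.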

How the data were processed

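RNA of 24 libraries was analysed, 3 in each of 8 groups, as grouped by the labels. The files deposited by the authors give raw counts, 1 whole number for each of 48359 transcript models, and these were summed to 27655 loci. The tools named in the submitters' processing notes are Trimmomatic 0.36, bcl2fastq 2.17.1.14, edgeR and Bowtie2, and the build is TAIR10. The order, the settings, the counting step and the strand are not given in the sources used here, so overlapping and antisense genes were not separated. The deposited normalized table was not used here. Gene positions and sequence came from assembly TAIR10.1, whose nuclear chromosomes have the lengths of TAIR10.

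In R 4.3.3, edgeR 4.0.16 kept loci by filterByExpr (minimum count 10, minimum total 15), which left 18797. Libraries were scaled by TMM and 1 quasi-likelihood model of 8 group means was fitted to all 24 libraries. The 18 contrasts were tested by glmQLFTest, and p-values were adjusted per contrast over all loci by the Benjamini-Hochberg method. The common dispersion was 0.0143. SE was obtained by dividing the absolute log2 fold change by the root of F. Interactions compare the ZT16 minus ZT4 change between settings. Likeness used log2 CPM with a prior count of 2. The scripts were tested on simulated data. Alternatives were other size factors, no filter, DESeq2 1.42.0, a replicate block, the compared groups alone, thinned libraries and each library left out. The members and the gene lists were chosen with earlier results of these data known. Named genes were the 9 members in all contrasts, PIF4, PIF5, TCP1 and CES, and from each pathway list at most 2 called genes in each direction, taken by adjusted p. A gene whose compared group held 0 to 3 reads was given no fold change.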

Additional observations from a re-analysis of the deposited data

Results flagged for a closer look

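Of 32 tests of whether the morning to evening change of a member differed between settings (8 members, 4 pairs of settings), 10 passed at an adjusted p under 0.05 in edgeR. Of all loci, 4.24% passed for LD+FR+TEMP, 17.4% for natural 2013 and 30.3% for natural 2014 against lab LD. Between the natural years 17.1% passed. Each value below is the difference in the log2 change from ZT4 to ZT16, with 3 libraries a group. For CPD the change was higher than in lab LD by 0.62 in LD+FR+TEMP, 1.22 in natural 2013 and 1.36 in natural 2014. For BAS1 it was higher by 2.48 in natural 2013 and 2.86 in natural 2014. BRI1 was higher by 0.58 in natural 2014. BR6OX2 was higher than in lab LD by 0.81 ± 0.24 in natural 2013 (adjusted p = 0.0197), and its change in natural 2014 against natural 2013 was -0.98. The BR6OX2 difference from lab LD did not pass without replicate 1 of natural 2013 or replicate 3 of lab LD at either time, nor in thinned libraries (adjusted p from 0.0511 to 0.0966). For BES1 the change was -0.99 in natural 2013 against lab LD and 0.76 in natural 2014 against natural 2013. The 3 comparisons with lab LD share its 6 libraries.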

How the results depend on the processing

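The members gave 50 calls in 144 results over 18 contrasts, of which 33 passed in all 30 alternatives, and no call reversed. The contrasts share libraries, and the share of all loci called ran from 2.65% to 45.7% between them. Leaving out 1 library moved the number of members called as follows: 1 to 4 for natural 2014 against natural 2013 at ZT4 and 1 to 2 at ZT16, 1 to 3 for the natural mean against LD+FR+TEMP at ZT4 and 1 to 4 at ZT16, 1 to 3 for natural 2014 against lab LD at ZT16, 1 to 2 for ZT16 against ZT4 in LD+FR+TEMP, 1 to 4 in natural 2013 and 2 to 4 in natural 2014, and 0 to 1 for time of day by setting in LD+FR+TEMP. Thinned libraries gave 1 call in place of 2 for ZT16 against ZT4 in LD+FR+TEMP (BAS1), and they also lost 1 call each of BZR1, DWF4, BAS1 (natural 2014) and BR6OX2 and 2 of ROT3 (adjusted p from 0.0518 to 0.199). Settings other than leaving out a library, thinning included, lost 16 calls and added 3 in all. In 0 of 12 pairs of groups did all same-numbered libraries deviate together at r over 0.1, and r ran from -0.12 to 0.21. The labels do not say how the replicates were made, so a shared planting or batch cannot be told from this. With the replicate block, DWF4 lost its natural 2014 against lab LD call at ZT16 (-0.45, adjusted p = 0.0591) and its natural 2013 rise over the day (0.49, adjusted p = 0.0525), and no other member call changed. BR6OX1 was too shallow to test, and ROT3, BAS1 and DWF4 had at most 100 reads in any library.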
